A study of Rattus norvegicus with 10 samples.

Results

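The genes of voltage-gated and other potassium, calcium and sodium channels were compared between rat intracranial aneurysms and the rest of the arterial ring at the base of the brain. Genes were taken by symbol: those beginning with Kcn and a further letter (potassium channels and their subunits), with Cacna, Cacnb or Cacng (voltage-gated calcium channels), or with Scn and a digit (sodium channels). This gave 133 of the 22081 rows of the deposited table, of which 94 were Kcn, 25 Cacn and 14 Scn. Kcnn2 occupied 2 of these rows.

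The aneurysm group held 5 rupture-prone lesions, numbered 4 to 8, and the control group held 5 samples of remaining circle of Willis, also numbered 4 to 8. All came from wild-type (WT) female Sprague–Dawley rats operated on at 10 weeks of age and sampled on day 63 after surgery. Both groups therefore shared ovariectomy on both sides, ligation of the left carotid, right external carotid and right pterygopalatine arteries, hypertension from salt loading and left renal artery ligation, and a diet containing 3-aminopropionitrile, which blocks collagen and elastin cross-linking. The control was accordingly non-aneurysmal artery of operated rats, not artery of untreated ones. According to the study's methods both tissues were taken from the same animal, but whether a shared number marks a shared animal, and whether every number is its own animal, is not stated. The p-values therefore describe the spread between these samples.

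In an artery, the membrane potential of smooth muscle cells sets how far voltage-gated calcium channels open, and calcium entering through them drives contraction. Potassium channels oppose this by letting potassium out, which makes the inside of the cell more negative. The same gene families carry the electrical signals of neurons, where sodium channels start the action potential, presynaptic calcium channels trigger transmitter release and fast potassium channels end the spike. Auxiliary subunits of both kinds of channel alter how quickly the pore opens and closes and how much of it reaches the membrane.

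Expression was counted as gene reads, which are all reads within a gene, exons and introns together. Gene reads per library ranged from 4513515 to 7352626 in the aneurysms and from 3017269 to 5692715 in the controls. Aneurysm 8 stood apart, with a scaling factor (trimmed mean of M values, TMM) of 0.282 against 0.759 to 1.57 in the other libraries, and with at least 10 exon reads in 743 genes against 2664 or more elsewhere. The smooth muscle markers Acta2, Tagln, Cnn1 and Myl9 had 0 reads in aneurysm 8, where Myh11 had 482. Across the list of 10 smooth muscle markers the summed level was 491 to 1264 CPM (counts per 1000000 reads, on TMM-scaled library sizes) in the aneurysms and 693 to 1534 CPM in the controls, and 0 of 10 passed the test. The controls also contained RNA of neurons. The list of 12 neuron markers summed to 105 to 162 CPM in the aneurysms and 227 to 1205 CPM in the controls, without overlap. Nefm had 0 reads in every aneurysm, against 3 to 93 in the controls. Syp and Slc17a7 had 0 or 1 read in every aneurysm and 0 in all controls but control 5, where they had 38 and 42. Syt1, Map2 and Eno2 were read in all 10 libraries, Eno2 with 2292 reads in the aneurysms and 1846 in the controls. Of the 8 neuron markers tested, all had a negative log2 fold change and 5 were lower at an unadjusted p under 0.05 by edgeR, where 2.43% of all tested genes were. At an adjusted p of 0.05, 0 of the 8 passed by edgeR and 3 by DESeq2. Of all tested genes, 0.158% passed by edgeR and 1.73% by DESeq2, which is the background for the lists below too. The 6 astrocyte markers summed to 4.75 to 197 CPM in the aneurysms and 415 to 770 CPM in the controls, and of the 3 tested 0 passed by edgeR and 1 by DESeq2, lower in the aneurysms. Other lists did not follow this course. The 8 oligodendrocyte markers summed to 40.8 to 507 CPM in the aneurysms and 34.9 to 154 CPM in the controls. The 5 fibroblast markers in the table summed to 289 to 19984 CPM in the aneurysms and 54.8 to 387 CPM in the controls, and 2 of the 4 tested passed by edgeR, both higher.

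Sequences upstream of 4 members are given first, since their scaled levels lay below all controls in at least 4 of the 5 aneurysms and they are returned to below: Kcnab1 (its scaled levels did not overlap between groups), Kcnd3 (its read counts did not overlap), and Kcnk2 and Kcnma1 (the lowest p-values among the members). Each is a RefSeq promoter window of 300 bases on build GRCr8, running from 250 bases before to 50 bases after a transcription start, on the gene's strand. Capitals mark matches to the GC box GGGCGG or to the right arm of the RE1 element, GGACAGC. The RE1 element is the binding sequence of REST, a repressor of neuronal genes. Matches on either strand are marked.
Kcnab1, chr2:151614301-151614600, plus strand: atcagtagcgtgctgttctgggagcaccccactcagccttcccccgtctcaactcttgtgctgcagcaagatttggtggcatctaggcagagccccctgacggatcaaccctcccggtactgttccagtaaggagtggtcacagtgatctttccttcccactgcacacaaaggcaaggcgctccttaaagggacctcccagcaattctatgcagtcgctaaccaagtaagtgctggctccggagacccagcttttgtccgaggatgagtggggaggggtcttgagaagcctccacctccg
Kcnd3, chr2:195626066-195626365, plus strand: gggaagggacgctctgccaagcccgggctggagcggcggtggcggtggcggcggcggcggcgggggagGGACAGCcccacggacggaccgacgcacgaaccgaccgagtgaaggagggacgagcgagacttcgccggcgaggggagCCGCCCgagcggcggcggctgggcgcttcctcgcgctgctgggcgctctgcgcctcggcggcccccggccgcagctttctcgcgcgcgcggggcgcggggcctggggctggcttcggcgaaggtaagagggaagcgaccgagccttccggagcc
Kcnma1, chr15:351675-351974, plus strand: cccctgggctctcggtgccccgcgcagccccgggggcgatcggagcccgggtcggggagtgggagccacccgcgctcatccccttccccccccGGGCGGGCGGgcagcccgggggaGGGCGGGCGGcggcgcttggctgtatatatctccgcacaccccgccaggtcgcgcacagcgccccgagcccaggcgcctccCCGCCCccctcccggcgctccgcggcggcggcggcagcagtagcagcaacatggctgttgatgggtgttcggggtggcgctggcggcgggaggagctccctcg
Kcnk2, first window, chr13:103438593-103438892, minus strand: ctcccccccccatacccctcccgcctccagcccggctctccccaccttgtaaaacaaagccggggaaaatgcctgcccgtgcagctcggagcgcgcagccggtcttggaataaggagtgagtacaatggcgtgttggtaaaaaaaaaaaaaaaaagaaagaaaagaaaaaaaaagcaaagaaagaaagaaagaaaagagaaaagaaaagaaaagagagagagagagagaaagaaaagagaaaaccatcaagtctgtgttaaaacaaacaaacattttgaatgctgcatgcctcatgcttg
Kcnk2, second window, chr13:103494637-103494936, minus strand: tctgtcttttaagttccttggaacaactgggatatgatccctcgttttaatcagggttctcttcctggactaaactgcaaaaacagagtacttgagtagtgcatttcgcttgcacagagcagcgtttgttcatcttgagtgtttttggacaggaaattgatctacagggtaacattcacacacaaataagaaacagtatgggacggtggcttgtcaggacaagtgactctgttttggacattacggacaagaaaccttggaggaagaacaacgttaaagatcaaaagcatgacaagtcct

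The windows differed in base composition. GC content was 77.7% for Kcnd3 and 78.3% for Kcnma1, against 56.7% for Kcnab1 and 44.3% and 41.7% for Kcnk2. The Kcnma1 window held 5 GC box matches, some of them overlapping, and that of Kcnd3 held 1 GC box match and 1 match to the right RE1 arm. Neither motif was found in the windows of Kcnab1 and Kcnk2. Over all 33469 promoter windows of this length, 33.1% held a GC box and 6.59% the right RE1 arm, and over the 97 windows that matched 88 of the 133 members the shares were 51.5% and 10.3%. The TATA box TATAAA was in 14.2% and 4.12%, and the CArG box, the binding sequence of serum response factor in smooth muscle genes, was in 1.64% of all windows and in 0 of 97 member windows. None of the 5 windows printed held a TATA or CArG box. Such matches describe letters only and were not tested as sites.

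Reads of channel genes were sparse and unevenly spread. Of the 133 members, 17 had 0 reads in all 10 libraries, 17 had 1 to 9 reads in total, and 99 had at least 10. Members took 0.0488 to 0.184% of the gene reads of the aneurysms and 0.165 to 0.220% of those of the controls. Between 17 and 43 members reached 10 reads in an aneurysm library, against 35 to 53 in a control library. More control than aneurysm libraries reached 10 reads for 57 of the 133 members and fewer for 16. Over the whole table of 22081 genes the counts were 6659 and 3854. In the plot of breadth by library, the share of the controls overlapped that of the aneurysms only through control 7 and aneurysm 4. This held for unscaled shares. In TMM-scaled CPM the members summed to 886 to 1742 in the aneurysms and 1530 to 2738 in the controls, and aneurysm 8, the lowest by share, was the highest aneurysm and lay above controls 4 and 7.

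**Figure D1:**
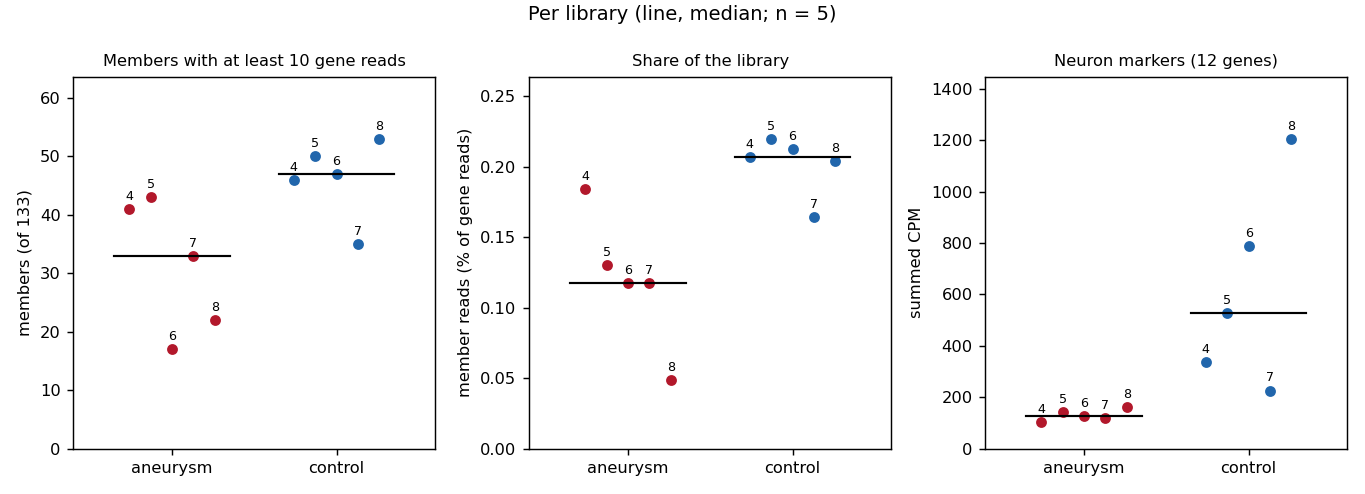
Members with at least 10 gene reads (left), member reads as a percentage of all gene reads (middle) and the summed CPM of 12 neuron markers (right) in each library. Points are libraries, numbered, and lines are group medians (n = 5 each). The aneurysms held 17 to 43 such members and the controls 35 to 53, and neuron markers summed to 105 to 162 CPM in the aneurysms and 227 to 1205 CPM in the controls.

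A test across all genes could be made for 35 members, those with enough reads to pass the filter. This set favours genes with reads in several libraries and is not a sample of all members. By edgeR's quasi-likelihood test, 0 of the 35 passed an adjusted p of 0.05, where 12 of 7615 genes tested (0.158%) did. DESeq2, which called 1.73% of all genes, and limma-voom, which called 0.171%, also called 0 members. At an unadjusted p under 0.05, 2 members were lower in the aneurysms, Kcnk2 and Kcnma1, and 0 were higher, where 2.43% of all tested genes were lower and 3.3% were higher. The log2 fold change, aneurysm over control, was positive in 16 members and negative in 19, that is 54.3% negative against 45.8% of all tested genes. Its median was -0.95 over the tested members and 0.13 over all tested genes. Which members were lower at an unadjusted p changed with the method. DESeq2 gave Cacnb4 and Kcnk2, library size scaling Cacnb4 and Kcnd3, and upper-quartile scaling Kcnk2 alone. Neither Kcnk2 nor Kcnma1 was called without aneurysm 5, 6 or 7, or without control 4, 5, 6 or 8.

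The count at an unadjusted p depended on single libraries. It was 8 of 45 lower members without aneurysm 8 (3.33% of all genes), 7 of 40 without aneurysm 4 (3.87%), 5 of 44 without control 7 (2.25%) and 4 of 44 without aneurysm 5 (3.95%), and 1 without control 4 (1.99%). Without aneurysm 6 it was 3 of 43 (2.8%), and without aneurysm 7 also 3 of 43 (2.77%). It was 0 without control 5 (1.93%), control 6 (2.01%) or control 8 (1.76%). Part of these counts came from the filter, which asks for reads in fewer libraries when a group is smaller. Cacng3, Kcnc2 and Scn3b were not among the 35 members and entered these fits mainly through controls with many reads. Over the 35 members alone, the count was 5 without aneurysm 8 (Cacna1a, Cacnb4, Kcnd3, Kcnma1 and Scn1a), 4 without aneurysm 4, 2 without control 7, 1 without aneurysm 5 or aneurysm 7, and 0 without aneurysm 6 or any other control. Aneurysm 8 was also the library with the lowest scaling factor, and what this contributed to the count was not tested.

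**Figure D2:**
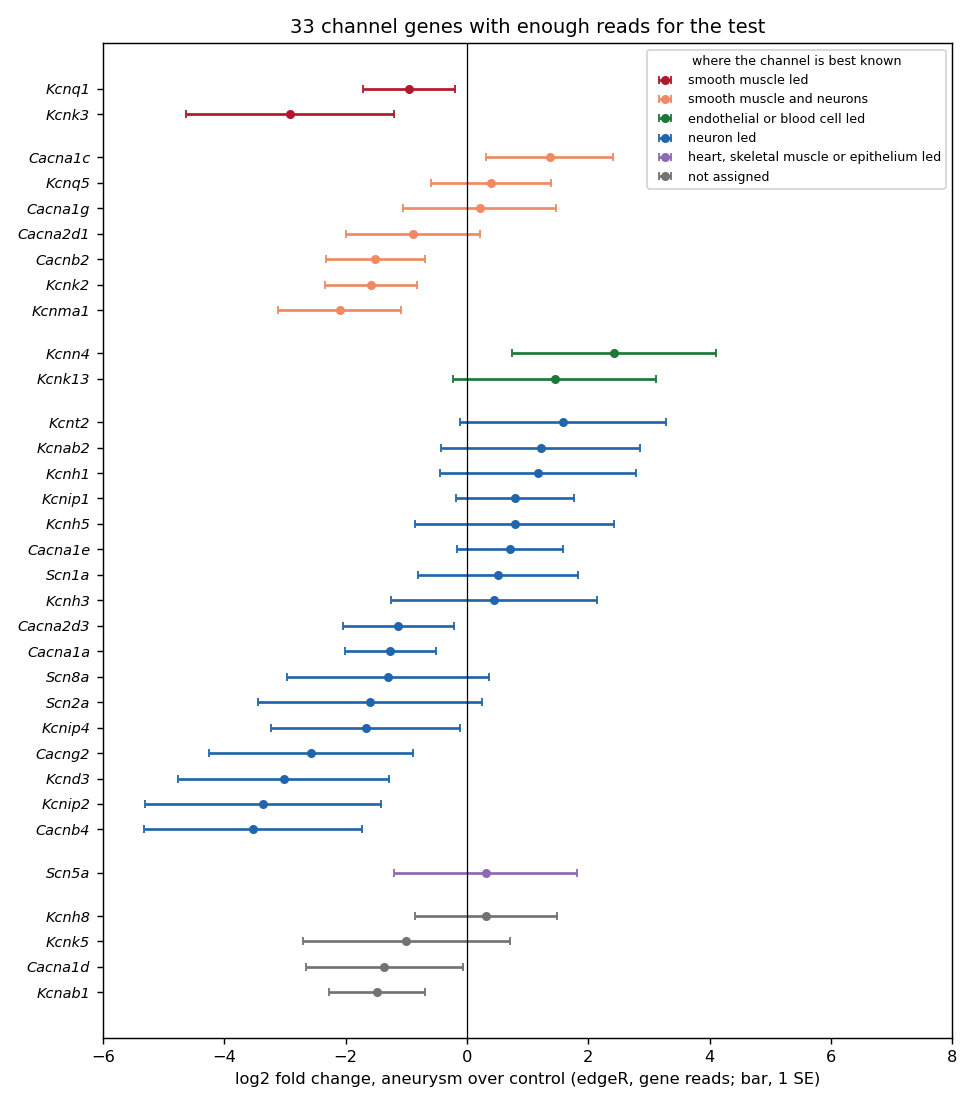
Log2 fold change of gene reads, aneurysm over control, for 33 of the 35 tested members (edgeR, points with 1 standard error, n = 5 libraries each). Members are grouped by the cell type or tissue list on which they were placed, if any. Estimates ran from -3.52 (Cacnb4) to 2.43 (Kcnn4), and 0 of 35 passed an adjusted p of 0.05.

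Channels on the smooth muscle list were mostly at or near 0 reads. Being on the list does not make a gene specific to smooth muscle. Only 2 of its 8 genes were tested, Kcnq1 and Kcnk3. Kcna5 (the Kv1.5 pore) and Kcne4 (a Kv auxiliary subunit) had 0 reads in all libraries. Kcnj8, the pore of the vascular ATP-sensitive potassium channel, had 40 reads in aneurysm 5 and 0 in every other library. Kcnmb1, the beta subunit that raises the calcium sensitivity of the large-conductance channel in arterial muscle, had 14 reads in aneurysm 5, 2 in aneurysm 7 and 0 in the controls. Only 37.5% of these Kcnmb1 reads were unique, and the gene overlaps Kcnip1. Thus Kcna5, Kcne4, Kcnj8 and Kcnmb1 could not be compared at this depth, and a count of 0 over a group allows up to 3 reads.

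Kcnq1, the Kv7.1 pore, was the best-read gene of the smooth muscle list. It had 1249, 1223, 262, 222 and 24 reads in aneurysms 4 to 8, against 233, 1092, 585, 629 and 376 in controls 4 to 8. The groups overlapped, and the log2 fold change was -0.95 ± 0.76 (SE, edgeR adjusted p = 0.999). Of its 5895 reads, 1 fell in an exon. An antisense transcript, Kcnq1ot1, is known within this gene in mouse and human, and reads of the 2 strands cannot be told apart here because the strand setting of the counting is not given in the sources used here.

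Kcnk3 (TASK-1), a background channel that closes in acid, had 1, 66, 0, 1 and 1 reads in the aneurysms and 82, 64, 56, 2 and 27 in the controls. In CPM, control 7 (0.353) lay among the aneurysms, and the other controls all lay above the highest aneurysm, aneurysm 5 (6.09). The log2 fold change was -2.92 ± 1.72 (SE, edgeR adjusted p = 0.964), and the exact permutation test on ranks gave p = 0.0317, two-sided and unadjusted, where the smallest possible p is 0.00794. Kcnk3 was not alone in this, since Kcnab1, whose scaled levels did not overlap, had that smallest p by the same test. Groups that do not overlap give that smallest p, and of all tested genes 1.54% were lower and 0.499% higher without overlap. How many of all genes reach the p of Kcnk3 was not computed. Kcns3, an electrically silent subunit that joins Kv2 pores, had 570 of its 695 reads in aneurysm 6, and 25.2% of its reads were unique.

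Among channels shared by smooth muscle and neurons, 8 of 14 genes were tested, 4 with a positive and 4 with a negative log2 fold change, with a median of -0.34 against 0.13 over all genes. The sign of that median was not stable. It ran from -0.91 (without aneurysm 7) to 0.51 (without aneurysm 5) over single libraries left out, and was -1.27 with limma-voom. Kcnk2 (TREK-1), a two-pore channel opened by stretch and by fatty acids, had 1878, 482, 245, 408 and 9 reads in the aneurysms, against 1377, 1325, 567, 1974 and 369 in the controls. In CPM these were 220, 44.5, 44.2, 82.4 and 7.12, against 239, 280, 164, 348 and 164. Aneurysm 4 lay among the controls and the other 4 aneurysms lay below all of them, whereas in unscaled reads only aneurysms 6 and 8 did. The mean was 79.7 ± 83.0 CPM in the aneurysms and 239 ± 78.9 CPM in the controls (SD, n = 5 each), with a log2 fold change of -1.58 ± 0.76 (SE, edgeR unadjusted p = 0.0472, adjusted p = 0.865). With 1221 exon reads in the aneurysms and 1128 in the controls, it was also 1 of only 2 members with enough exon reads for the test, and exon reads gave -0.80 (edgeR adjusted p = 1.0). Reads across exon junctions numbered 1 in the aneurysms and 212 in the controls.

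Kcnma1, the pore of the large-conductance calcium-activated potassium channel, had 674, 125, 7, 7 and 36 reads in the aneurysms, against 876, 351, 275, 279 and 371 in the controls. In CPM, aneurysm 4 (79.0) exceeded controls 5 (74.2) and 7 (49.2), and the other aneurysms, at 1.26 to 28.5, lay below all controls. The log2 fold change was -2.09 ± 1.01 (SE, edgeR unadjusted p = 0.0479, adjusted p = 0.866). Intron reads made up 95.8% of the total, and exon reads numbered 3 in the aneurysms and 122 in the controls, of which 30 lay in control 4 and 82 in control 8. This gene serves both arterial muscle and neurons, and neuron markers, at 105 to 162 CPM in the aneurysms and 227 to 1205 CPM in the controls, moved the same way. In bulk tissue, fewer cells of a type and less RNA per cell cannot be told apart, and the part of either in these differences was not tested.

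Cacna1c, the pore of the L-type channel through which most calcium enters arterial muscle, had 995, 313, 9, 18 and 423 reads in the aneurysms, against 168, 318, 44, 238 and 81 in the controls. The aneurysms lay on both sides of the controls, and in CPM they ran from 1.62 in aneurysm 6 to 335 in aneurysm 8, against 12.7 to 67.3 in the controls. The log2 fold change was 1.37 ± 1.05 (SE, edgeR adjusted p = 0.999), and it was -0.67 by limma-voom and -0.020 without both libraries numbered 8. Of its 460 exon reads, 158 were in aneurysm 5 and 225 in aneurysm 8, and 300 reads crossed an exon junction.

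The auxiliary subunits of that channel had negative log2 fold changes that did not pass the test. Cacnb2, a cytoplasmic beta subunit, had 322, 736, 154, 140 and 24 reads in the aneurysms and 192, 624, 267, 908 and 255 in the controls, with a log2 fold change of -1.51 ± 0.81 (SE, edgeR adjusted p = 0.889). Cacna2d1, an alpha2-delta subunit, gave -0.88 ± 1.10 (SE, edgeR adjusted p = 0.999), and its aneurysm libraries split into 354 and 504 reads in aneurysms 7 and 5 and 8 to 41 in the others. With Cacnb4, Cacna2d3 and Cacng2, described below among the neuronal calcium channels, 5 calcium channel auxiliary genes were tested. All 5 had a negative log2 fold change, from -3.52 to -0.88, where 45.8% of all tested genes were negative, and 0 passed. Of the other pores, Kcnq5 and Cacna1g had log2 fold changes of 0.40 and 0.21, both below their standard errors. Cacna1h, Kcnj12, Kcna2, Cacnb3 and Kcnk6 each had over 50% of their reads in 1 library, and Kcnj2, the classical inward rectifier of small arteries, had 0 reads throughout.

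**Figure D3:**
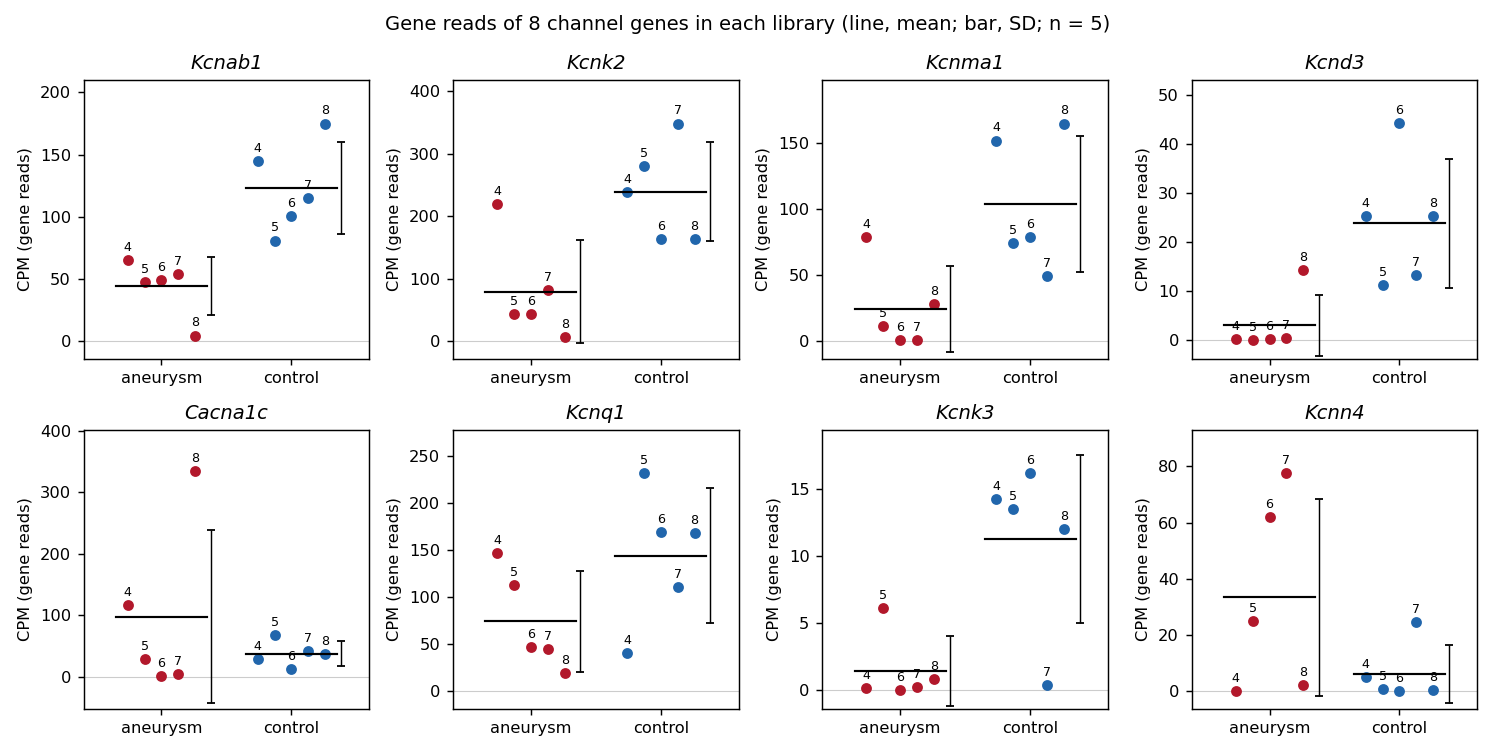
CPM of gene reads for 8 members in each of 5 aneurysm and 5 control libraries, with library numbers, group means (lines) and SD (bars). Kcnab1 is the gene whose groups did not overlap, with 4.75 to 65.3 CPM in the aneurysms and 81.0 to 175 CPM in the controls.

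Kcnab1, which encodes a cytoplasmic beta subunit that speeds the closing of Kv1 potassium channels, was on no cell type list. It lies on chromosome 2 from 155718358 to 156009526 (Rnor6) in the deposited table. It had 557, 516, 273, 269 and 6 reads in the aneurysms, against 833, 383, 348, 652 and 393 in the controls. After scaling, these were 65.3, 47.6, 49.2, 54.3 and 4.75 CPM in the aneurysms and 145, 81.0, 101, 115 and 175 CPM in the controls. Every aneurysm lay below every control, and the means were 44.2 ± 23.1 and 123 ± 37.1 CPM (SD, n = 5 each). It was the only 1 of the 35 tested members without overlap, where 1.54% of all tested genes were lower without overlap and 0.499% higher, so that 1 of 35 was near the background. The log2 fold change was -1.47 ± 0.79 (SE, edgeR adjusted p = 0.889). Of its reads, 97.6% were intronic, and of the 83 junction reads 64 were in the aneurysms and 19 in the controls.

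Channels on the neuron list made up 58 rows, of which 54 had reads and 18 were tested. Of these 18, 8 had a positive and 10 a negative log2 fold change, with a median of -1.20, and 0 passed at an adjusted or an unadjusted p under 0.05. Kcnd3 (Kv4.3), the pore of a rapidly inactivating A-type current, had 3, 1, 2, 2 and 18 reads in the aneurysms, against 146, 53, 153, 75 and 57 in the controls. Its read counts did not overlap, as in 0.88% of all tested genes in this direction. In CPM aneurysm 8 was at 14.2, within the 11.2 to 44.2 of the controls, while the other aneurysms stayed at 0.404 or less. Summed over libraries, the ratio of aneurysm to control was 0.0377 (95% exact binomial counting interval 0.0244 to 0.0560, for counting error only). The log2 fold change of -3.02 ± 1.73 (SE) did not pass (edgeR adjusted p = 0.945). All 26 aneurysm reads were intronic, as were all but 89 of the 484 control reads, and 88 of those 89 lay in control 4.

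The other subunits of the A-type current followed no single course. Kcnip2, a calcium-binding partner of Kv4 pores, had 90 reads in aneurysm 7 and 0 in the other aneurysms, against 39, 113, 436, 0 and 75 in the controls, but 1.86% of its reads were unique, so that its values are uncertain. Kcnip4, of the same family, had a log2 fold change of -1.67 ± 1.56 and Kcnip1 one of 0.79 ± 0.97 (SE), with edgeR adjusted p = 0.999 for both. Kcnip1 reads were 95, 1131, 565, 220 and 49 in the aneurysms and 245, 121, 281, 90 and 18 in the controls, and all were intronic. The gene overlaps Kcnmb1.

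Among neuronal calcium channels, Cacna1a, the pore of the P/Q-type channel at synapses, had 919, 349, 187, 121 and 139 reads in the aneurysms, against 591, 406, 423, 1525 and 352 in the controls. It was the other member with enough exon reads to test, and its log2 fold changes were -1.26 ± 0.75 in gene reads and -2.29 in exon reads (edgeR adjusted p = 0.966 and 1.0). Cacnb4, a beta subunit of cerebellar and other neurons, had 8, 1, 1, 6 and 12 reads in the aneurysms and 15, 188, 147, 3 and 101 in the controls. Controls 4 and 7 lay within the aneurysm range in CPM, and the log2 fold change was -3.52 ± 1.80 (SE, edgeR adjusted p = 0.889). Cacng2 (stargazin), which carries AMPA-type glutamate receptors to the membrane, had 4, 0, 4, 21 and 5 reads in the aneurysms and 93, 37, 30, 2 and 49 in the controls (log2 fold change -2.57 ± 1.68, edgeR adjusted p = 0.999). Cacna1e, the R-type pore, had 301, 870, 1618, 377 and 7 reads in the aneurysms and 192, 219, 286, 225 and 217 in the controls. Its aneurysms lay on both sides of the controls, and the log2 fold change of 0.71 ± 0.87 (SE, edgeR adjusted p = 0.999) was -0.29 without aneurysm 6. Cacna2d3, an alpha2-delta subunit, had 394, 116, 53, 291 and 116 reads in the aneurysms and 58, 491, 502, 170 and 416 in the controls, and the groups overlapped (log2 fold change -1.13 ± 0.91, edgeR adjusted p = 0.999). Cacna1d, the L-type pore of cardiac pacemaker cells and of many neurons, was on no list and had 267, 154, 0, 176 and 3 reads in the aneurysms, against 250, 176, 309, 210 and 18 in the controls (-1.36 ± 1.30, edgeR adjusted p = 0.999). All 105 of its junction reads were in the controls. The sodium-activated potassium channel gene Kcnt1 had 442 of its 851 reads in aneurysm 4 and was not tested.

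Reads of the brain sodium channel pores Scn2a and Scn1a were uneven between libraries. Scn2a had 63 and 181 reads in aneurysms 5 and 7 and 0 in the other aneurysms, against 0, 148, 69, 7 and 172 in the controls, and 20.6% of its reads were intronic. Scn1a had 174, 68, 0, 2 and 503 reads in the aneurysms and 4, 166, 267, 221 and 327 in the controls, and its log2 fold change of 0.51 ± 1.32 became -3.09 without aneurysm 8. Of the auxiliary subunits, Scn3b had 2, 1, 1, 15 and 1 reads in the aneurysms and 8, 37, 181, 2 and 182 in the controls, too few for the test.

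Absence below 10 reads in every aneurysm was shared by 5 members that reached 10 reads in at least 3 controls: Cacna1b, Kcnc2, Kcnj3, Kcnk10 and Kcnq3. These are 5 of 133 members, and 239 of the 22081 genes of the table were of this kind. Of the opposite kind were 157 genes, of which 1 was a member. The 5 were picked by these counts, so the reads given below restate that choice. Kcnc2 (Kv3.2) had 2, 1, 0, 1 and 2 reads in the aneurysms, against 128, 194, 106, 0 and 57 in the controls. Kcnj3, a subunit of the G protein-gated inward rectifier, had 2 to 7 reads in the aneurysms, against 54, 56, 3, 3 and 231 in the controls, and Kcnq3, a subunit of the M-current, had at most 3 in the aneurysms, against 6, 243, 29, 3 and 55 in the controls. Control 7 had 0 to 17 reads of each of the 5 genes and was also the control with the lowest neuron marker sum, 227 CPM. Control 6, with a neuron marker sum of 789 CPM, had 3 reads of Kcnj3. Any link between these values was not tested.

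Channels of endothelial and blood cells had a positive log2 fold change where they could be tested, which was 2 of 4 genes. Kcnn4, the intermediate-conductance calcium-activated channel of endothelium, T cells and macrophages, had 1, 272, 344, 384 and 3 reads in the aneurysms, against 29, 4, 0, 139 and 1 in the controls. Aneurysms 5 to 7 lay above all controls in CPM and aneurysms 4 and 8 lay among them, and the log2 fold change was 2.43 ± 1.68 (SE, edgeR adjusted p = 0.999). It had 481 exon reads in the aneurysms and 121 in the controls, with 0 reads across a junction. Kcnk13 (THIK-1), known from microglia, had 161, 268, 3, 189 and 2 reads in the aneurysms and 121, 23, 11, 9 and 0 in the controls (1.45 ± 1.67, edgeR adjusted p = 0.999). Kcna3, the Kv1.3 channel of T cells, had 76 reads in aneurysm 5 and 0 elsewhere. Kcnn3 had 54 reads in aneurysm 4 and at most 20 in any other library. The 8 macrophage markers summed to 79.1 to 5998 CPM in the aneurysms and 19.2 to 149 CPM in the controls. All 6 of them that were tested had a positive log2 fold change. At an adjusted p of 0.05, 1 passed by edgeR and 3 by DESeq2, where 0.158% and 1.73% of all tested genes did. The 7 endothelial markers in the table summed to 65.3 to 297 CPM in the aneurysms and 119 to 308 CPM in the controls, and 4 of the 5 tested had a negative log2 fold change, with 0 passing by edgeR. The part of either cell type in these values was not tested. The 3 astrocyte channels Kcnj10, Kcnj16 and Kcnk1 could not be tested. Kcnj10 had 62, 0, 0, 0 and 1 reads in the aneurysms and 31, 79, 1, 1 and 17 in the controls. Kcnj16 had 19 reads, all in aneurysm 5, and Kcnk1 had 3 aneurysm reads and 27 control reads.

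Most of what was counted lay in introns. Over the 65 members with at least 100 gene reads, the median intron share was 93.4%, 23 had at least 99% and 7 had under 50%. In 38 members gene reads were present without a single exon read. Gene reads were present in 116 members and exon reads in 78, against 16700 and 12722 genes of the whole table. Per library, introns held 80.4 to 94.9% of the members' gene reads and 32.8 to 49.8% of those of all genes. Junction reads, which only spliced RNA gives, were present in 12 members. Of the 24 multi-exon members with at least 100 exon reads, 66.7% had no junction read, against 53.5% of 7696 such genes in the table. Of all exon reads, however, 12.1% crossed a junction in the members and 5.04% over all genes. Gene reads also followed gene length, with a Spearman correlation of 0.73 between reads and span across members and 0.66 across all genes, given as a description since genes share the libraries. The median span was 188849 bases for tested members, 20003 for members not tested and 3128 for members at 0 reads. The 17 members at 0 reads included Kcna5, Kcne4, Kcnj2, Kcna4, Kcnj11 and Kcnj14, and the longest of these 17 spanned 14207 bases. Per kilobase of span, Kcnn4 had 76.5 reads over all libraries, Kcnk2 44.0, Kcnab1 14.5 and Kcnma1 4.27.

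**Figure D4:**
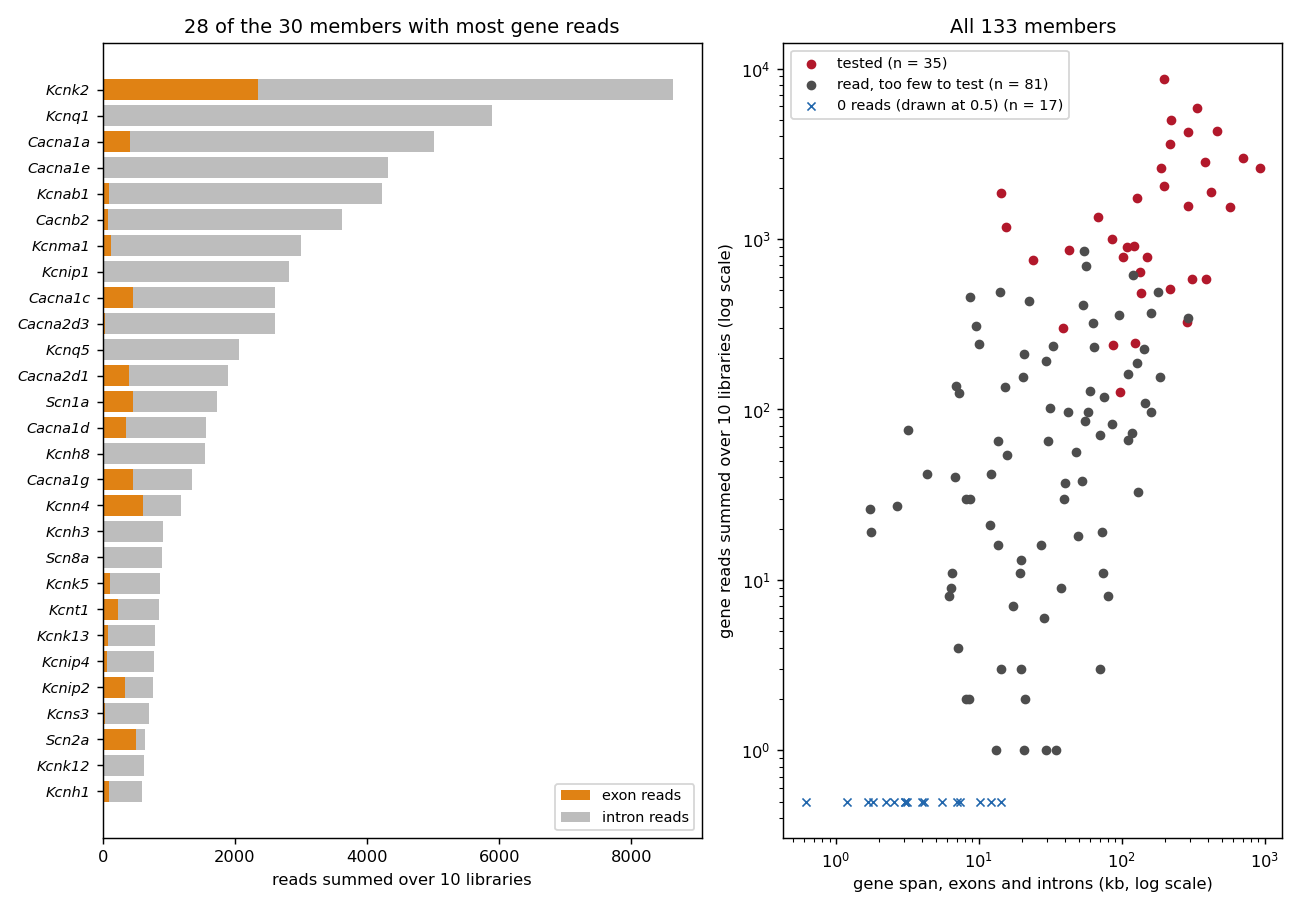
Left, exon and intron reads summed over 10 libraries for 28 of the 30 members with most gene reads. Right, gene reads against gene span (log axes) for all 133 members, of which 35 were tested, 81 were read but not tested and 17 had 0 reads. Intron reads form most of nearly every bar, and the members at 0 reads span at most 14207 bases.

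Fitted on intron reads alone, 31 members were tested and 0 passed (0 of 5459 genes passed, 0%). Kcnk2 and Kcnma1 were lower at an unadjusted p under 0.05 by edgeR, where 2.64% of all genes were lower. Introns held most of the gene reads of both genes, so this fit is not separate from the one on gene reads. The median log2 fold change over these members was -0.40 and 0.11 over all genes. On exon reads, 2 members were tested and 0 passed, where 0.539% of 2969 genes did. Of the 99 members with at least 10 reads, 47 had over 50% of them in 1 library, which is 47.5% against 42.9% of all such genes. For example, Kcnd1 had 97.3% of its reads in aneurysm 4, Cacng4 93.2% in control 4 and Scn4b 88.1% in aneurysm 8.

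The ion pumps, exchangers, calcium-store channels and other channel genes on a separate list were counted in the same way. Of 29 such genes in the table, 24 were tested, 8 with a positive and 16 with a negative log2 fold change, and 0 passed by edgeR. Their median was -0.36. The sodium-calcium exchanger Slc8a1 had 943, 1451, 1441, 459 and 253 reads in the aneurysms and 524, 191, 119, 565 and 128 in the controls (edgeR adjusted p = 0.902). Abcc9, the partner of Kcnj8, had 3, 72, 1, 7 and 7 reads in the aneurysms and 0, 110, 74, 69 and 7 in the controls.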

How the data were processed

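Poly(A)-selected RNA of 5 aneurysms and 5 control samples was prepared with a TruSeq stranded kit and sequenced on a NextSeq500. Per the paper, the authors used CLC genomics workbench, version 11, to map reads to Rnor6, and the counts per gene that they deposited were not normalized: gene reads (exon plus intron), exon, intron, unique and junction reads. The strand setting of the counting is not given in the sources used here. Columns of the authors' comparison (fold changes and p-values) and their normalized columns were not used. In the table, 0 columns of samples could not be matched.

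The members and lists were chosen with earlier results of these data known. Gene reads were filtered by filterByExpr (count minimum 10), scaled by TMM and compared with edgeR (4.0.16) by the quasi-likelihood test in R (4.3.3), with Benjamini-Hochberg adjustment over all 7615 genes tested. Exon reads and intron reads were fitted likewise. The common biological coefficient of variation was 1.38. A gene that did not pass is not shown to be unchanged. By a chi-square comparison of counts, no pair of libraries of a group differed by sampling noise alone, as repeat sequencing of a library would. None was therefore dropped as a repeat, and all 10 were kept. This comparison does not judge the quality of the libraries. Ranks of single genes were compared by an exact permutation test over 252 splits. Ratios of summed reads carry 95% exact binomial intervals, which cover counting error only, and 3 reads were taken as the floor. Alternatives used limma (3.58.1) and DESeq2 (1.42.0). There were 21 for the gene-read fit. The fit without both samples numbered 8, and unscaled reads for single genes, were added after the data were seen. Tables were made in Python (3.11.15) with pandas (2.3.3), numpy (2.4.6) and scipy (1.17.1), and plots with matplotlib (3.10.9). Promoter windows are RefSeq sequence on GRCr8, whereas deposited coordinates are those of Rnor6.

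Members were named if they passed the threshold in any of the 3 fits, were among the 20 with the lowest p or the 15 with most gene or exon reads, or were on the smooth muscle, shared, astrocyte or endothelial and blood cell lists. Those named for single-library reads, for the group of 5 below 10 reads in every aneurysm or for overlapping genes fall outside this rule and were chosen after their values were seen. Kcnd2 and Cacna1i were on the lists and were not analysed here. Some genes that the rule names are not reported here, and the counts over all members include them.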

Additional observations from a re-analysis of the deposited data

Results flagged for a closer look

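In groups of 5 libraries, the gap between the most extreme library and its neighbour was divided by the group's range and compared with Dixon's 95% value of 0.71 for the log2 CPM of the tested named members. Of 50 such comparisons 6 exceeded it. That value assumes normally distributed levels, whereas several of these genes had libraries at or near 0 reads and all genes share the libraries. The 6 therefore cannot be set against a rate given by chance. In the aneurysms, the ratio was 0.877 for Kcnab1, with aneurysm 8 low, 0.852 for Kcnd3, with aneurysm 8 high, 1 for Kcnip2, with aneurysm 7 high, and 0.731 for Kcnt2, with aneurysm 6 low. In the controls, it was 0.907 for Kcnk3, with control 7 low, and 0.712 for Scn1a, with control 4 low. Kcnt2, a sodium-activated potassium channel gene of neurons, had 87, 244, 1, 73 and 39 reads in the aneurysms and 17, 53, 1, 65 and 0 in the controls.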

How the results depend on the processing

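Of the 25 tested members named, 20 kept the direction of their log2 fold change in every alternative that could fit them and 5 changed it. Members past an adjusted p of 0.05 stayed at 0 under every alternative to the gene-read fit except the one without aneurysm 4 (range 0 to 1 over single libraries left out). The number of all genes past it was 132 with DESeq2, 2 with upper-quartile scaling, 2 with library size only, 130 without a filter, 28 with at least 10 reads in 3 samples, 0 on intron reads, 24 without both samples numbered 8, and 1 to 33 over single libraries left out, against 12. Members lower at an unadjusted p were 1 with upper-quartile scaling, 15 without a filter, 5 with 10 reads in 3 samples, 7 with limma-voom, 0 on exon reads and 0 to 8 over single libraries left out, against 2. The share of all genes lower moved too, being 2.48% with upper-quartile scaling, 7.26% both without a filter and with limma-voom and 3.32% with 10 reads in 3 samples, against 2.43%. Over the 35 members of the reported test, 1 was lower without a filter and 0 with 10 reads in 3 samples. Members higher were 6 without a filter (8.14% of all genes), 1 with 10 reads in 3 samples (4.31%) and 0 to 1 over single libraries left out, against 0 (3.3%). On exon reads without a filter, 30 genes passed against 16, and 9 members were higher and 25 lower at an unadjusted p (13% and 13.3% of all genes). On intron reads without a filter, 41 genes passed against 0, and 7 members were higher and 11 lower (8.67% and 8.07%). Over all 133 members, 3 had groups that did not overlap with library size only (Kcnab1, Kcnd3 and Cacna1b), against 1. Cacna1b was not among the 35 tested, and had 3 and 4 reads in controls 4 and 7. The causes were not tested.

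With the sample number as a replicate block, 17 genes and 0 members passed on gene reads and 5 members were lower at an unadjusted p (4.1% of all genes), 5 genes passed on exon reads, and 5 members were lower on intron reads (4.45%). Same-numbered samples deviated together little (correlations -0.024 to 0.136, with 2 of 5 aneurysms best with their own number). With libraries this variable, such correlations cannot decide whether same-numbered samples shared an animal. The numbers were not taken to pair the samples because what they mark is not stated. The block turned Cacna1c to -0.64, Cacna1g to -0.41, Kcnq5 to -0.67 and Scn1a to -2.39. limma-voom gave -0.67, -0.73, -1.31 and -2.27 for the same 4 genes. The median over all genes was -0.35 with the block, -0.32 with limma-voom and 0.40 with DESeq2, against 0.13. Of all genes 58.6% were negative with the block and 57.9% with limma-voom, and the members' split was 9 positive and 26 negative with both. With library size only, Kcnq5 was -0.14 and Scn1a -0.89, and 13 members were positive and 22 negative. Without both samples numbered 8, Cacna1c was -0.020, Cacna1g -0.032 and Scn1a -2.51. Over single libraries left out, the log2 fold change ran from -0.29 to 1.03 for Cacna1e, from -0.43 to 0.74 for Cacna1g, from -0.49 to 0.94 for Kcnq5 and from -3.09 to 1.15 for Scn1a.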
